A study of Mus musculus with 6 samples.

Results

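DNA replication and S phase genes are the genes whose products license origins, unwind the double helix, copy it, supply nucleotides and load histones onto the new strands. The set held 51 named genes, found by matching the row names of the raw signal table to current or older mouse symbols, out of 28888 genes with a row. All 51 had a row, in capitals in the table (MCM2, PCNA and TYMS for Mcm2, Pcna and Tyms), and 45 of them were bright enough to be tested, among 10301 genes tested in all. The RNA came from LT-HSC, the long-term repopulating stem cells that keep up blood formation over a lifetime, sorted from bone marrow. In the SSA group, male C56 Bl/6 mice aged 2 months had undergone sex steroid ablation (SSA) 2 days earlier, and in the sham group, males of the same strain and age had undergone a sham ablation 2 days earlier. Each group had 3 arrays, and the labels give neither the sorting markers nor whether an array stands for 1 animal or a pool. Since they name no separate animals, a p-value here reflects how far these 6 samples scatter, part of which can be technical.

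Stem cells of adult marrow are known to be mostly quiescent, and they enter the cell cycle when blood formation is stressed. Before S phase the origin recognition complex, Cdc6 and Cdt1 place the MCM ring on DNA, and Cdc45 and the GINS complex turn that ring into the active helicase. DNA polymerases, the sliding clamp Pcna and its loader then copy both strands, and transcription of many of these genes is driven by E2F factors as a cell leaves G1.

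Every result uses signal on a log2 scale after background correction, an offset of 16 and quantile normalization, and a log2 fold change is the SSA mean minus the sham mean. The offset understates changes of dim genes. The scale is relative within a gene, so levels of different genes are not compared. Median raw signal per array ran from 132.3 on sham 2 to 145.3 on sham 3, the number of arrays limits the precision, and the standard error over the beads of a tested member was 1.94% to 9.81% of its signal. The array numbers in the column headers were 4, 5 and 6 for SSA and 7, 8 and 12 for sham. If these numbers follow the order of hybridisation, order and group cannot be told apart. Sham 2 stood apart on the first principal component, which held 46.7% of the variance, at 42.0 against -24.1 to 10.1 for the other arrays. Among markers of LT-HSC, Kit, Ly6a, Hoxb5, Tek and Slamf1 were above background on all 6 arrays and Mecom on 5. Hlf and Fgd5 were above background on 1 array each, and Procr on none. By the deposited detection score, Hlf was detected on 5 arrays, Fgd5 on 4 and Procr on none. Of lymphoid genes, Pax5, Cd3e and Cd8a were above background on no array, whereas Cd79b, Vpreb1, Lck and Nkg7 were above it on all 6 and Igll1 on 4. Of committed progenitor genes, Flt3 was above background on no array, whereas Mpo, Prtn3, Ctsg, Cd34 and Klf1 were above it on all 6.

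The promoters of members hold letters that E2F factors are known to recognise, and 4 of them are printed to show those letters in genes of the set. RefSeq promoter windows of 300 bases, 250 before and 50 after the start site on GRCm38.p6, were found for 42 of the 51 genes, in 47 windows. The letters TTTCCCGC, TTTCGCGC, TTTGCCGC or TTTGGCGC were searched on both strands, and matches could overlap. They occurred in 14 of the 47 windows, or 29.8%, against 2.26% of 32851 windows of all genes. The box CCAAT, searched on both strands, occurred in 57.4% of member windows and 37.4% of all windows. A match describes the letters and not binding. The windows below belong to the 4 genes with the lowest p among those that hold a match and whose SSA arrays all lay below the sham arrays. Capitals mark the E2F letters on either strand, and each sequence runs 5′ to 3′ in the direction of its gene.
Mcm3 promoter: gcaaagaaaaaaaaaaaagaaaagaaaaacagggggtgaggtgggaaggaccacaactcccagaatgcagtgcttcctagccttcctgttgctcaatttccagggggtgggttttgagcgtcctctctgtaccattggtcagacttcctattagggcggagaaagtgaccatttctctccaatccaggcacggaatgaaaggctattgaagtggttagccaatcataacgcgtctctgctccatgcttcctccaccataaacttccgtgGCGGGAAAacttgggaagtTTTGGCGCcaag
Clspn promoter: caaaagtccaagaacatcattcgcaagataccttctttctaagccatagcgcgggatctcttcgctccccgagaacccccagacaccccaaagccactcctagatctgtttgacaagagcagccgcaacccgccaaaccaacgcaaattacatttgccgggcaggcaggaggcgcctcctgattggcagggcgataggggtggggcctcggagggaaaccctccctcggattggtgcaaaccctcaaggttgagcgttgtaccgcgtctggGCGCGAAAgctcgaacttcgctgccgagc
Mcm7 promoter: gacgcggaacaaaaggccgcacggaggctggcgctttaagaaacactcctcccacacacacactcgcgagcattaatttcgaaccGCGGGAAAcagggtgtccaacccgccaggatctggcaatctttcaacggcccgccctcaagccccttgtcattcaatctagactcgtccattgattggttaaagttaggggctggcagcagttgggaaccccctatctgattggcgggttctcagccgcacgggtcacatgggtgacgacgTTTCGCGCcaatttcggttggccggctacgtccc
Mcm5 promoter: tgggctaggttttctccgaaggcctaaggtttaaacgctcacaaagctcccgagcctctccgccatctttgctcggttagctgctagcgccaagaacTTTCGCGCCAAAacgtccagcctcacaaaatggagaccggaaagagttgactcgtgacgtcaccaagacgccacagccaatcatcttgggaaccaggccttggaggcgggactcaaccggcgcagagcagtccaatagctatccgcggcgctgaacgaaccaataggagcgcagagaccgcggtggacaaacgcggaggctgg
These windows lie at chr1:20820263-20820562 on the minus strand for Mcm3, chr4:126556730-126557029 on the plus strand for Clspn, chr5:138171834-138172133 on the minus strand for Mcm7 and chr8:75109259-75109558 on the plus strand for Mcm5. In Mcm3 and Clspn the matches lie within the bases after the start site, and in Mcm5 a pair of matches overlaps upstream of it.

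Replication genes stood lower after SSA in most members of every role, by differences of which none passed the test across all genes. Of the 45 tested members, 42 had a negative log2 fold change, whereas 48.7% of all tested genes did, and the median was -0.34 against 0.0080 over all genes. In 17 members every SSA array lay below every sham array, which was the case for 6.21% of all genes. Chaf1b alone lay above on every SSA array, as did 8.51% of all genes. Single values ran from -0.76 for Chaf1a to 0.22 for Chaf1b. In limma, 0 members passed an adjusted p of 0.05, where 0.00971% of all genes did, a single gene, Ear6, an eosinophil ribonuclease. At an unadjusted p under 0.05, 11 members were lower and 0 higher, against 3.73% and 4.76% of all genes, and the smallest adjusted p of a member was 0.569. In sorted cells, fewer cells in S phase and less replication RNA per cell cannot be told apart.

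**Figure D1:**
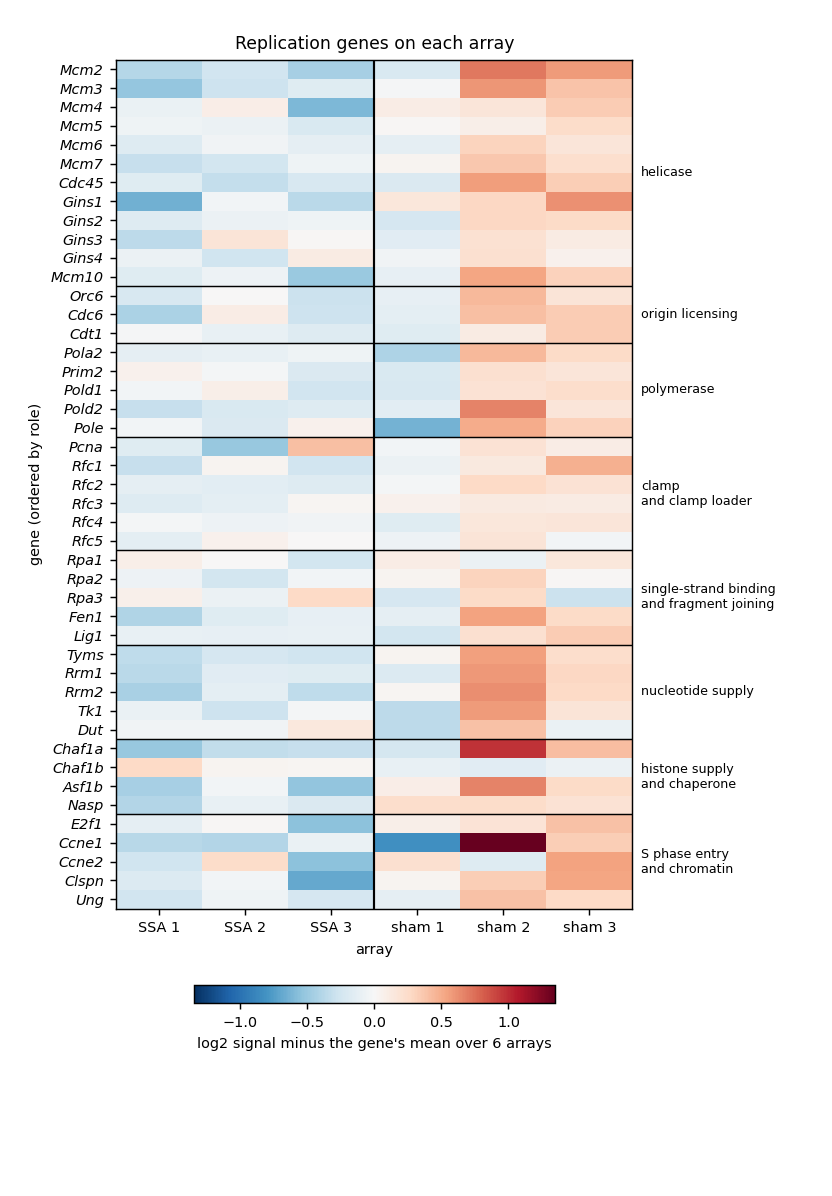
Each row is a tested replication gene, ordered by role, and each column an array. Colour gives the log2 signal minus the gene's mean over the 6 arrays, and the red columns are sham 2 and sham 3, with medians of 0.30 and 0.25, while sham 1 has a median of -0.11.

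The sham arrays differed from each other on these genes. Relative to each gene's mean over 6 arrays, the median member stood at -0.17, -0.080 and -0.17 in SSA and at -0.11, 0.30 and 0.25 in sham. Sham 1 thus lay between the SSA arrays, and sham 2 and sham 3 above all of them. Both of those arrays exceeded every SSA array in 36 of 45 members, against 17.3% of all genes. Sham 1 exceeded every SSA array in 18 members, lay within the SSA range in 16 and lay below it in 11. Over all genes, sham 1 exceeded every SSA array in 23.3%. The SSA mean was below sham 1 in 29 members, against 46.5% of all genes, with a median difference of -0.078. Sham 2 was the highest of the 6 arrays for 30 members and sham 3 for 12, and the same counts over all genes were not taken. Without sham 1 the median fold change was -0.46, 43 members were lower against 49.4% of all genes, 36 members were wholly lower against 17.3% of all genes, and 27 were lower at an unadjusted p under 0.05 against 8.17%. No member passed limma there, where 0.0680% of all genes did, and the smallest adjusted p of a member was 0.115, for Mcm2. Without sham 2 the median was -0.23, with 40 members lower against 47.9% of all genes, 18 wholly lower against 11.2% and 7 lower at an unadjusted p under 0.05 against 3.22%. Without sham 3 the median was -0.27, with 42 lower against 48.2%, 17 wholly lower against 8.63% and 6 lower at that p against 1.94%. When arrays were scaled by a median shift in place of quantiles, 43 members were lower against 61.7% of all genes, and 11 were wholly lower against 5.56%, 10 of them among the 17. At an unadjusted p under 0.05, 12 members were then lower against 3.64% of all genes. In limma, 0 members passed without sham 2, without sham 3 or with the median shift, where 0.0194%, 0.00971% and 0.0388% of all genes did.

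**Figure D2:**
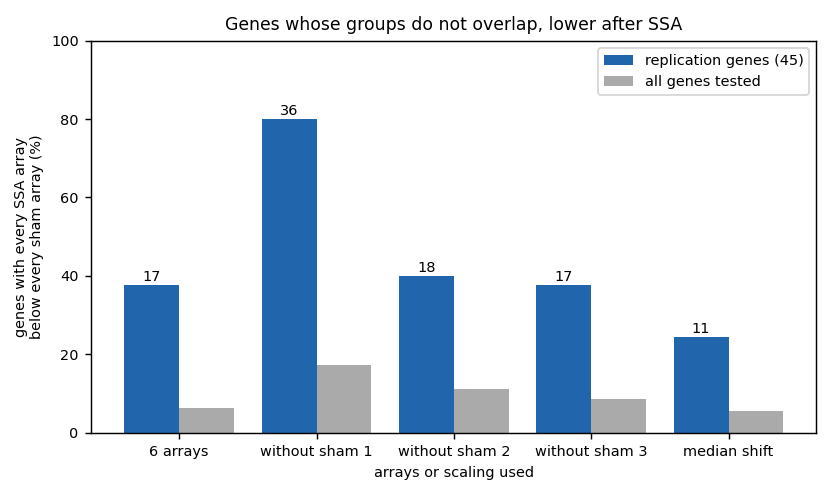
Bars give the percent of genes with every SSA array below every sham array, for the 45 tested replication genes (blue, with the number of genes) and for all tested genes (grey). The number rises from 17 with 6 arrays to 36 without sham 1, and it is 11 when arrays are scaled by a median shift.

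The helicase genes were lower in 12 of 12, with a median of -0.41, and in 6 of them the groups did not overlap. Mcm2, a subunit of the ring that unwinds DNA at the fork, read 9.82, 9.95 and 9.76 in SSA and 10.00, 10.92 and 10.78 in sham. The SSA arrays lay close together and below every sham array, sham 1 only just above them. The means were 9.84 ± 0.096 and 10.57 ± 0.49 (SD, n = 3). The difference was -0.72 ± 0.24 (SE) on the log2 scale, or 0.607 times the sham level. The unadjusted p in limma was 0.0195 and the adjusted p 0.569.

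Mcm3, another ring subunit, read 8.74, 8.98 and 9.10 in SSA and 9.24, 9.85 and 9.64 in sham, without overlap. The log2 difference was -0.64 ± 0.20 with an unadjusted limma p of 0.0125. Mcm7, a ring subunit as well, read 9.02, 9.08 and 9.27 in SSA and 9.37, 9.69 and 9.56 in sham, and its log2 fold change was -0.41 ± 0.15. Mcm4 and Mcm5 were also wholly lower, by smaller differences of -0.40 ± 0.20 and -0.23 ± 0.14. Mcm4 read 10.55, 10.72 and 10.03 in SSA and 10.73, 10.80 and 10.98 in sham, with SSA 3 low and SSA 2 next to sham 1. Mcm5 read 12.45, 12.43 and 12.30 in SSA and 12.52, 12.59 and 12.76 in sham, with little spread in either group. Mcm6 completed the ring at -0.23 ± 0.16, with sham 1 within the SSA range. With the median shift, Mcm2, Mcm4 and Mcm5 no longer separated, whereas Mcm3 and Mcm7 did.

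**Figure D3:**
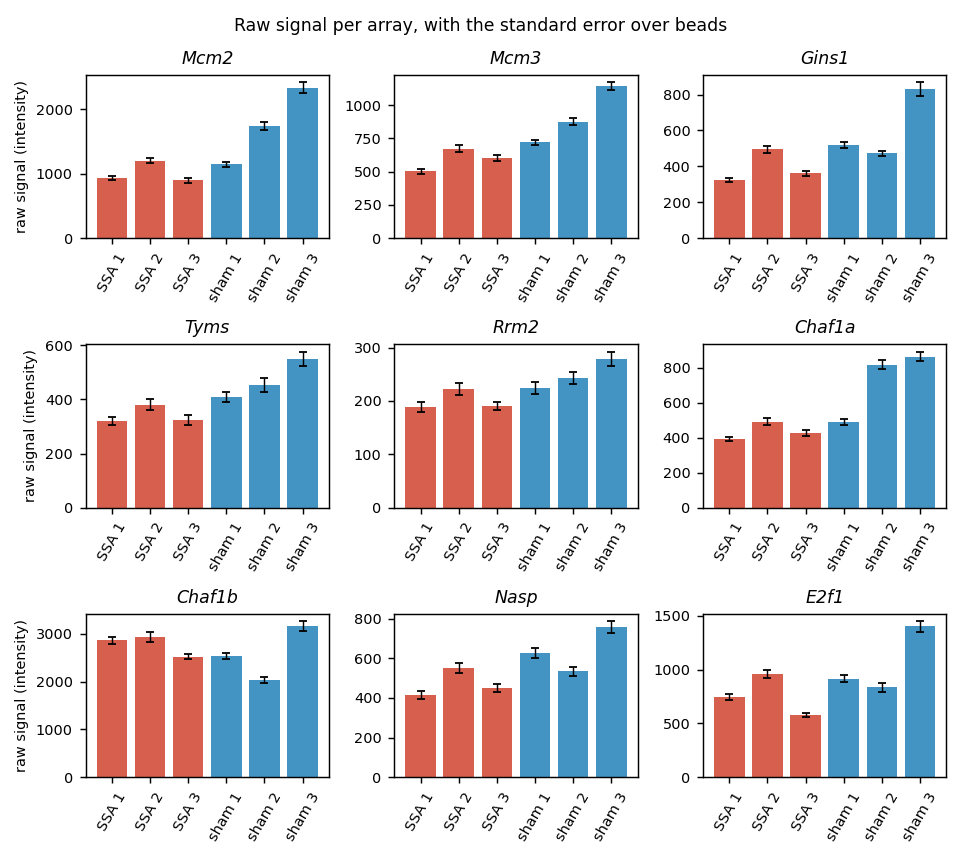
Bars give the raw, unnormalised signal of 9 members on each array, SSA in red and sham in blue, and error bars the standard error over beads. Mcm2 raw signals of 898.5 to 1199.5 in SSA and 1144.2 to 2333.2 in sham overlap before normalization, and sham 3 is the brightest array for every gene drawn.

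Gins1, a subunit of the GINS complex that joins the ring to Cdc45, had the smallest p of all members. It read 7.83, 8.44 and 8.12 in SSA and 8.63, 8.76 and 9.10 in sham, with sham 1 above every SSA array. The log2 fold change was -0.70 ± 0.21, or 0.615 times the sham level, with an unadjusted limma p of 0.00995. The other GINS genes overlapped between groups, at -0.20 for Gins2, -0.11 for Gins3 and -0.16 for Gins4. A further row of Gins2 under an older clone name stood at -0.38, so the size of its difference depends on the row. Cdc45 stood at -0.47 ± 0.21, or -0.16 with neqc's own background fit, and Mcm10, which helps to activate the helicase, at -0.48 ± 0.21. For Cdc45 and Mcm10 sham 1 lay within the SSA range, at 7.37 and 9.12, and sham 2 was the highest array. The deposited detection score counted Cdc45 as detected on 1 SSA and 0 sham arrays, and Mcm4 on 2 arrays of each group.

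The licensing genes overlapped between groups throughout. Orc6, a subunit of the origin recognition complex, read 9.98, 10.20 and 9.91 in SSA and 10.09, 10.64 and 10.37 in sham, a log2 fold change of -0.34 ± 0.18. Cdc6, the loader of the MCM ring, stood at -0.41 ± 0.21 and Cdt1, its partner, at -0.20 ± 0.17. Cdc6 read 6.72, 7.25 and 6.87 in SSA and 7.02, 7.55 and 7.49 in sham. Sham 1 lay within its SSA range, and the difference was -0.090 with neqc's own background fit. Orc1 was too dim to test, between 137.1 and 154.1 raw.

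Polymerase genes were lower in 5 of 5 tested, with a median of -0.14. Pold2, the accessory subunit of polymerase delta, was the exception in that its groups did not overlap, at 9.48, 9.59 and 9.62 in SSA and 9.65, 10.46 and 9.95 in sham. Sham 2 was the highest array and sham 1 lay next to SSA 3, and the log2 fold change was -0.46 ± 0.21. Without sham 2 it was -0.24, and with the median shift the groups overlapped. Pola2, a subunit of the polymerase alpha and primase complex, read 9.50, 9.52 and 9.57 in SSA and 9.21, 10.06 and 9.88 in sham, so sham 1 was its lowest array. Pole, the leading strand polymerase gene, likewise had sham 1 as its lowest array, at 7.02, and a log2 fold change of -0.12 ± 0.29. Pold1, the catalytic subunit of polymerase delta, and the primase subunit gene Prim2 stood at -0.14 and -0.11. The polymerase median was -0.44 without sham 1, -0.036 without sham 2 and -0.060 without sham 3. Pola1 and Prim1 were too dim to test.

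The sliding clamp and its loader had a median of -0.19 over 6 genes, or -0.052 with neqc's own background fit. Pcna, the clamp that holds polymerases on DNA and a common marker of S phase, read 6.15, 5.80 and 6.72 in SSA and 6.28, 6.51 and 6.41 in sham. The SSA arrays spanned the whole sham range, and the log2 fold change was -0.18 ± 0.24, with 0.031 without SSA 2. The raw signal of its row was low, between 179.4 and 226.7, which limits what it can show. All 5 loader genes were lower, and the groups of Rfc2 and Rfc3 did not overlap. Rfc2 read 11.26, 11.24 and 11.21 in SSA and 11.36, 11.65 and 11.58 in sham, a log2 fold change of -0.29 ± 0.14. Rfc3, a small loader subunit, read 7.19, 7.23 and 7.39 in SSA and 7.42, 7.49 and 7.48 in sham. SSA 3 lay just below sham 1, and the log2 fold change was -0.19 ± 0.13, or -0.050 with neqc's own background fit. With the median shift the groups of Rfc3 overlapped. Rfc1, the large loader subunit, read 9.43, 9.78 and 9.49 in SSA and 9.67, 9.88 and 10.22 in sham. Sham 1 lay below SSA 2, and the log2 fold change was -0.36 ± 0.19. Rfc4 and Rfc5 stood at -0.10 and -0.041.

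Genes for single-strand binding and for joining Okazaki fragments were lower in 4 of 5, and only Rpa2 separated the groups. Fen1, the flap nuclease of the lagging strand, read 10.26, 10.50 and 10.56 in SSA and 10.55, 11.21 and 10.92 in sham. Sham 1 lay level with SSA 3, and the log2 fold change was -0.45 ± 0.20. Rpa2, a subunit of the single-strand binding protein RPA, read 8.10, 7.92 and 8.13 in SSA and 8.20, 8.46 and 8.18 in sham. It was wholly lower by a narrow margin, at -0.23 ± 0.15, or -0.12 with neqc's own background fit. The other RPA subunit genes overlapped, Rpa1 at -0.11 and Rpa3 at 0.17, and Rpa3 was higher in every alternative setting. Lig1, the ligase of the lagging strand, had SSA arrays within 9.01 and 9.03 and sham arrays on both sides of them, from 8.88 to 9.47.

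Nucleotide supply genes had a median of -0.45, and both Tyms and Rrm2 separated the groups. Tyms, the thymidylate synthase gene, read 7.80, 7.91 and 7.87 in SSA and 8.18, 8.69 and 8.38 in sham. Here sham 1 stood clear of every SSA array. The log2 fold change was -0.55 ± 0.17, or 0.681 times the sham level, with an unadjusted limma p of 0.0110. By the deposited detection score Tyms was detected on 1 SSA and 3 sham arrays, although its signal was above background on all 6. Rrm2, the inducible subunit of ribonucleotide reductase, read 6.27, 6.57 and 6.37 in SSA and 6.73, 7.33 and 6.97 in sham. The difference was -0.61 ± 0.19 log2, again with sham 1 above every SSA array. With neqc's own background fit the values were -0.29 for Tyms, -0.10 for Rrm2 and -0.15 for the median of this role. Rrm1, the large reductase subunit gene, stood at -0.45 ± 0.21, Tk1, a thymidine kinase gene, at -0.26 ± 0.24, and Dut, the dUTPase gene, at 0.032 ± 0.21. Sham 1 was the lowest array for both Tk1 and Dut.

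Histone supply genes were lower in 3 of 4 tested, and the subunits of chromatin assembly factor CAF-1 stood on opposite sides. Chaf1a, the large CAF-1 subunit gene, read 8.25, 8.43 and 8.45 in SSA and 8.52, 9.73 and 9.18 in sham. The group means were 8.38 ± 0.11 and 9.14 ± 0.60 (SD, n = 3), and sham 1 lay just above the SSA arrays. Its log2 fold change was -0.76 ± 0.29, or 0.589 times the sham level, and -0.47 or beyond in every alternative setting. Chaf1b, the middle CAF-1 subunit gene, read 11.58, 11.35 and 11.34 in SSA and 11.22, 11.16 and 11.24 in sham, without overlap and with the SSA arrays above. Its log2 fold change was 0.22 ± 0.14 with an adjusted limma p of 0.630. Chaf1b stayed above 0 in all 21 alternative settings, from 0.13 to 0.26, although its groups overlapped with the median shift. The difference between Chaf1a and Chaf1b was not itself tested.

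Asf1b, a chaperone that hands histones to CAF-1, read 6.89, 7.30 and 6.81 in SSA and 7.43, 8.01 and 7.60 in sham. The SSA mean of Asf1b was lower by a log2 fold change of -0.69 ± 0.21, and of -0.18 with neqc's own background fit. Nasp, a chaperone for histones H3 and H4, read 8.36, 8.65 and 8.56 in SSA and 8.99, 9.0 and 8.95 in sham. The sham arrays of Nasp, unlike those of most members, lay close together at a SD of 0.027 and all stood above SSA. Its log2 fold change was -0.46 ± 0.14 with an unadjusted limma p of 0.0118. The median of the 4 tested genes was -0.57, or -0.28 with neqc's own background fit. Slbp, the histone mRNA binding protein gene, was at background on every array.

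Genes grouped under S phase entry and chromatin were lower in 5 of 5 tested, with a median of -0.44, or -0.13 with neqc's own background fit. E2f1, the transcription factor gene, read 9.45, 9.59 and 9.02 in SSA and 9.65, 9.76 and 9.97 in sham, with SSA 2 just below sham 1. E2f1 thus had a log2 fold change of -0.44 ± 0.19. Clspn, a mediator of the replication checkpoint, read 8.07, 8.22 and 7.57 in SSA and 8.29, 8.59 and 8.79 in sham, a log2 fold change of -0.60 ± 0.22 and -0.33 with neqc's own background fit. For E2f1 and Clspn, SSA 3 was the lowest array, and the groups overlapped with the median shift. Ccne1, an E-type cyclin gene, had the widest sham spread, from 5.14 on sham 1 to 7.31 on sham 2, and a log2 fold change of -0.58 ± 0.48. That value was -1.13 without sham 1, -0.05 without sham 2 and -0.08 with neqc's own background fit. Ccne2 overlapped at -0.39 ± 0.26, with sham 2 below SSA 2, and stood at -0.04 with neqc's own background fit. Ung, the gene of a glycosylase that removes uracil from DNA, stood at -0.36 ± 0.17. Hells and Atad2, both chromatin factor genes, were too dim to test. The 6 untested genes of all roles had raw signals between 112.9 and 174.9, where background plus 3 SD lay between 148.4 and 164.8.

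**Figure D4:**
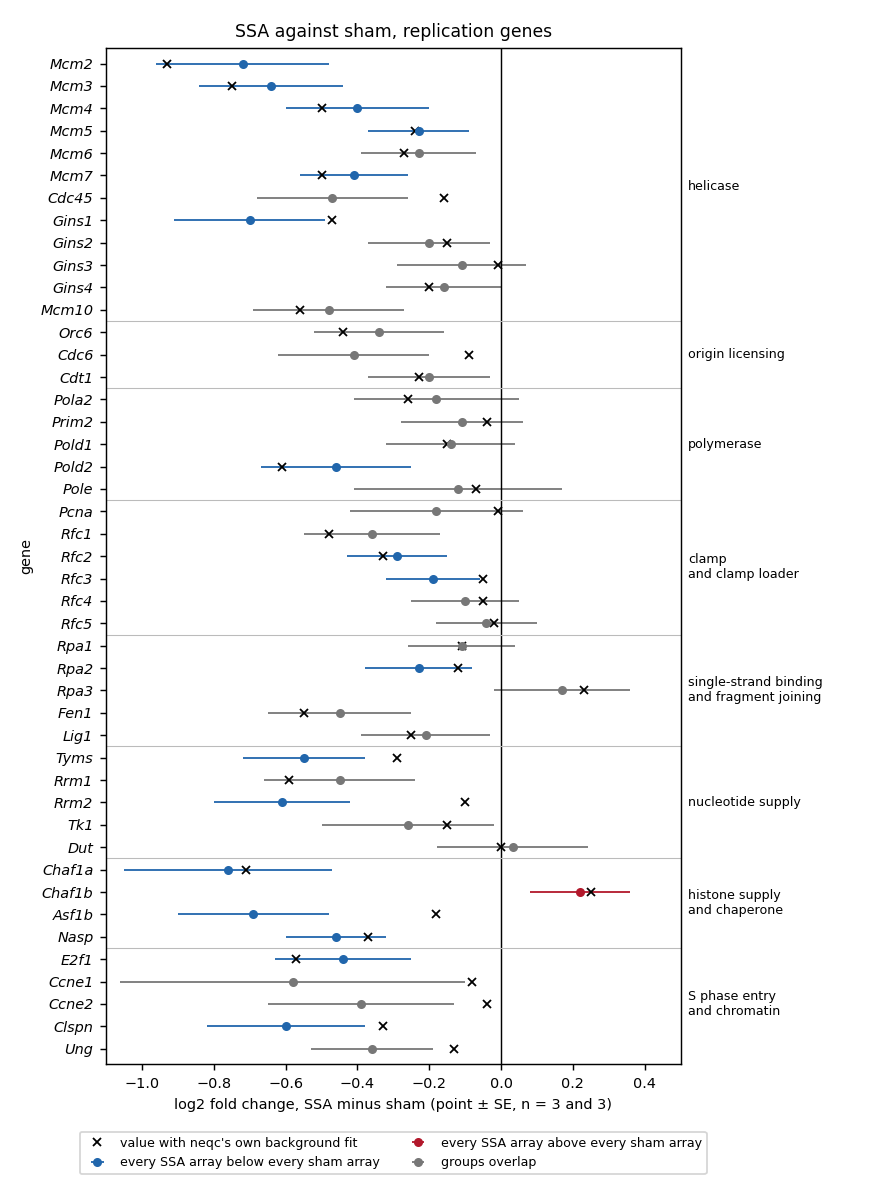
Points give the log2 fold change of each tested replication gene, SSA minus sham, with its SE from limma (3 arrays a group), blue or red where the groups do not overlap. Crosses give the value with neqc's own background fit, which lies nearer 0 for dim genes such as Rrm2 (-0.10 against -0.61) and farther out for Mcm2 (-0.93 against -0.72).

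A list of 57 other replication genes, which also act at origins, forks or in nucleotide supply, held 39 that were tested. Of these 31 were lower and 8 higher, with a median of -0.19, against 48.7% lower over all genes. The groups did not overlap in 7 genes, all lower, or 17.9% against 6.21% of all genes. This count was 3 of 39 with the median shift, where 5.56% of all genes were wholly lower. It was 17 of 39 genes without sham 1, where 17.3% of all genes were, and 12 of 39 without sham 2, where 11.2% were. Without sham 3 it was 7 of 39, where 8.63% of all genes were. None passed limma, while 4 of the 39 were lower at an unadjusted p under 0.05, against 3.73% of all genes. Wdhd1, which couples the helicase to polymerase alpha, read 7.45, 7.71 and 7.47 in SSA and 7.89, 8.56 and 8.40 in sham. This gene had a log2 fold change of -0.74 ± 0.20, the largest of the 7, and -0.32 with neqc's own background fit. Cdc7, the kinase that fires origins, stood at -0.63 ± 0.22, although the deposited score detected it on no array, and Uhrf1, which binds hemimethylated DNA and recruits the methyltransferase Dnmt1, at -0.44 ± 0.20. Cdk2, the kinase partner of the E cyclins, stood at -0.27 ± 0.15, Rnaseh2b at -0.39, E2f3 at -0.36 and Donson at -0.44. For E2f3 and Donson, which were dim, neqc's own fit gave -0.039 and -0.025.

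Mitosis genes, which are expressed after S phase, stood lower in the same comparison. Of 30 listed, 20 were tested, 19 were lower with a median of -0.46, against 48.7% lower over all genes, and 12 were wholly lower, against 6.21%. The array medians of this list were -0.065, -0.20 and -0.40 in SSA and 0.11, 0.39 and 0.23 in sham. For these genes sham 1 lay above every SSA array, whereas for the replication genes it lay among them, and that difference was not tested. Mki67, a common proliferation marker named after its values were seen, read 8.13, 8.42 and 7.89 in SSA and 8.61, 8.96 and 8.94 in sham, although the deposited score detected it on 1 array.

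Markers of other cells also moved across the arrays, and their part in the values above was not tested. Of 10 committed progenitor genes 7 were tested and 5 were lower, with array medians of 0.020, -0.038 and -0.18 in SSA and 0.021, 0.57 and 0.17 in sham. In 3 of the 7, Mpo, Ctsg and Cebpe, the groups did not overlap, or 42.9% against 6.21% of all genes. Cebpe was above background on 4 arrays. Its raw SSA signals were 158.4, 156.8 and 151.2, where background plus 3 SD was 157.4, 160.5 and 155.3. Its place among the tested genes thus rests mainly on the sham arrays. Mpo, Ctsg and Cebpe had log2 fold changes of -0.55, -0.76 and -0.89, or -0.59, -0.87 and -0.076 with neqc's own background fit. The 2 higher genes of this list, Prtn3 and Cd34, stood at 0.11 and 0.38. Of the erythroid genes 9 of 10 were tested, all 9 lower and all 9 overlapping, with array medians from -0.93 to 0.29 in SSA and -0.35 to 0.90 in sham. Of the neutrophil and monocyte genes 8 of 10 were tested and all 8 were lower, and Csf1r was above background on no array. Only Fcnb had groups without overlap, or 12.5% of the list against 6.21% of all genes. Fcnb was above background on 2 arrays and at background in SSA, with raw signals of 132.3, 147.3 and 134.9. It was thus tested only through its sham signal, and its -1.17 was -0.093 with neqc's own background fit. The array medians of the neutrophil and monocyte list ran from -2.17 to 0.78 in SSA and from -1.53 to 1.96 in sham. The highest array for that list was sham 1, which was low for replication genes, and the lowest sham array was sham 3, which was high for them. The log2 fold changes of the erythroid genes Car1, Hba-a1 and Hbb-b1 were -0.56, -0.32 and -0.43. Those of the neutrophil and monocyte genes S100a8, Lyz2 and S100a9 were -1.46, -0.091 and -1.29. Of the B cell list 3 of 8 genes were tested, Cd79b, Vpreb1 and Igll1, at 0.020, 0.64 and 0.42. Of the T and NK cell list 2 of 8 were tested, Nkg7 at -0.51 without overlap and Lck at -0.10. The 7 tested LT-HSC markers had array medians of 0.24, 0.10 and 0.083 in SSA and 0.14, -0.20 and -0.38 in sham, and by these medians sham 2 and sham 3, the arrays high in replication genes, were the lowest. The markers did not move together. Ly6a and Hoxb5 stood at 0.89 and 0.78 with overlapping groups, whereas Kit, wholly lower at -0.31, and Tek, at -0.10, were highest on sham 3.

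**Figure D5:**
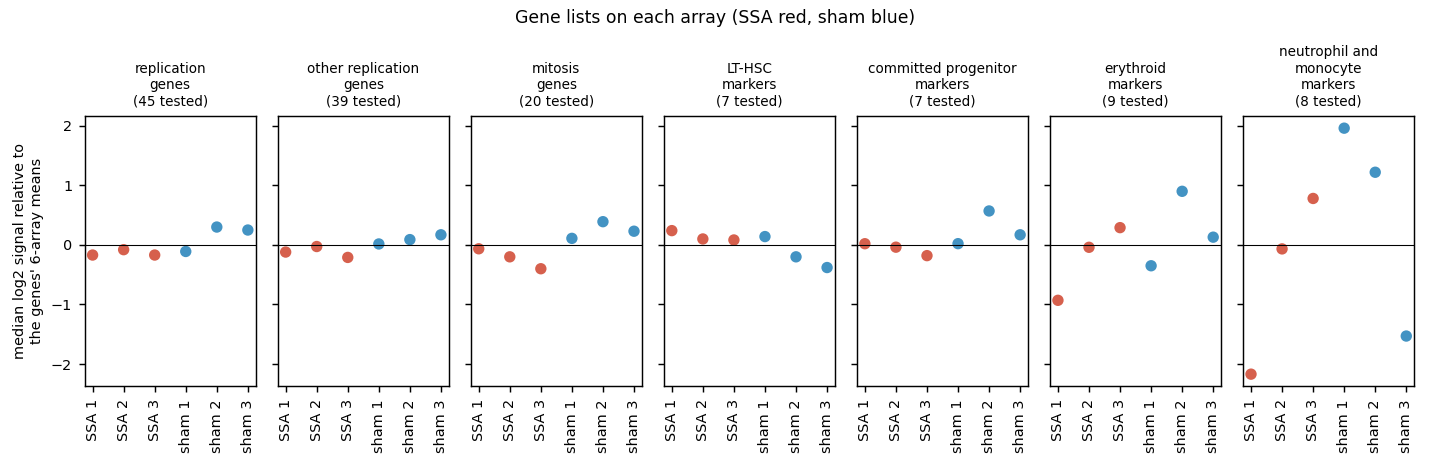
Each panel gives, for a gene list, the median log2 signal on each array relative to the genes' 6-array means, SSA in red and sham in blue. Sham 2 and sham 3 are high for replication genes and low for LT-HSC markers, and the neutrophil and monocyte list spans -2.17 to 1.96 in another order of arrays.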

How the data were processed

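Biotin-labelled cRNA of 3 SSA and 3 sham samples was read on Illumina mouse whole-genome BeadChips. Per the file headers, the authors exported gene-level raw intensity from GenomeStudio 1.8.0 with no normalization, together with a detection score per row. The deposited score was read as 1 minus a detection p, and by it 9 of the 45 tested members were detected on fewer than 6 arrays. The authors' series matrix, deposited as intensity on a linear scale, equals the raw signal minus 1 constant per array (within 0.1) and served as an alternative. The raw table holds 12 further columns, which were not used. Of 30774 rows, 15991 matched a current symbol of the RefSeq table of GRCm38.p6 and 5826 an older one.

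Background mean and SD per array were taken from the raw signals of rows whose score lay at its midpoint or 1 SD to either side (126.1 to 137.7 and 7.45 to 9.05) and removed by normexp in limma 3.58.1 (R 4.3.3), followed by an offset of 16, quantile normalization and log2. The fit inside neqc gave background SDs of 194.9 to 302.7 on these rows, far from that range, so it was an alternative. Rows with a mean at least 3 background SDs above background were kept, with the brightest row per gene. "Above background" on an array means past the same limit. SSA was compared with sham by limma's moderated test (group only, two-sided, Benjamini-Hochberg over 10301 genes, called at 0.05), which was tested on simulated data. The simulated noise was independent between genes and arrays, so that run does not cover shifts shared by many genes of an array.

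The members, lists and settings were chosen with earlier results of these data known. Members given in full are those whose groups did not overlap, the 2 of smallest p per role, and Pcna, Tyms, Mcm2, Rrm2 and E2f1. Of the other replication genes, those whose groups did not overlap are named, and of each cell type list those of highest raw signal, among others; some genes of these lists are not reported here.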

Additional observations from a re-analysis of the deposited data

How the results depend on the processing

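The median of the members was below 0 in every setting tried: 33 to 46 of the 36 to 51 tested were lower; the median change lay between -0.46 and -0.20. The count of genes called over the whole table, 1 in the main setting, was 0 with neqc's own background fit (alone or with the detection filter), without background correction, without a filter on dim rows and with the replicate block. It was 4 with the median shift, with no normalization between arrays and with gene-by-gene array weights, all 4 lower in each. It ran from 0 to 7 when single arrays were left out. Array weights by REML, whose estimate stopped before convergence and gave sham 3 a weight of 6.73, called 1859 of 10301 genes, 832 of them lower, and 21 of 45 members. No other setting called a member, and the smallest adjusted p among those was 0.115. The cause was not tested. The gene-by-gene weights and the joint change of background fit and filter were added after the data were examined.

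The number of wholly lower members, 17 where 6.21% of all genes were wholly lower, was 11 with the median shift, where 5.56% were. It was 9 with no normalization between arrays, where 4.93% of all genes were. Without single arrays it was 17 to 36, where 8.2% to 17.3% of all genes were. Members lower at an unadjusted p under 0.05, 11 in the main setting, numbered 17 with no filter, 33 with REML weights, 24 with gene-by-gene weights and 5 to 27 without single arrays, with 5 without SSA 1 and 6 and 7 without sham 3 and sham 2. Over all genes, those past this p in either direction numbered 874 in the main setting, 2058 with no filter, 3717 with REML weights and 2308 with gene-by-gene weights. Without single arrays they numbered from 401, without SSA 1, to 1808, without sham 1, so the all-gene counts moved with the settings too. The median of all genes turned from 0.0080 to -0.075 with the median shift and to -0.078 with no normalization. Of 501 values under alternatives of the members given in full, 1 changed sign, Pcna at 0.031 without SSA 2 (from -0.43 without SSA 3). Among the other members, Pole ranged from -0.46 to 0.10, Rfc5 from -0.15 to 0.03, Gins3 from -0.22 to 0.04 and Dut from -0.14 to 0.24. With the replicate block, 13 members were lower at an unadjusted p under 0.05. Deviations of same-numbered samples correlated at 0.42, -0.010 and -0.19, and those of differently numbered samples at -0.49 to 0.38. Deviations from a group mean cancel within the group, so these values cannot settle pairing. The labels state no pairs, and the numbers were not taken as pairs.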
